A study of Homo sapiens with 10 samples.

Results

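Collagens are the family of matrix proteins described here. The collagen chain genes were taken as the protein-coding genes whose symbol is COL, a number, A and a number, after the Ensembl identifiers of the count table had been matched to GENCODE 44. The rule found 44 genes among the 60448 of the table, of which 19578 were matched protein-coding genes, and it used no measured value. Of the 44 collagen chain genes, 24 had enough counts to be tested and 20 did not.

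The series compared untreated cells of the human endothelial lines EA.hy926 and HMEC-1 by RNA-seq of mRNA, with 5 libraries from each line, which the study describes as independent biological replicates. EA.hy926 is a hybrid of a human umbilical vein endothelial cell and the A549 lung carcinoma line, and HMEC-1 is a dermal microvascular line immortalized with the SV40 large T antigen. Both are labelled as endothelial cells of wild-type genotype and came from the same cell bank. EA.hy926 was grown in Advanced DMEM with 5% fetal bovine serum, whereas HMEC-1 was grown in another medium, MCDB 131, to which were added 10% fetal bovine serum, 1 µg/mL hydrocortisone and epidermal growth factor at 10 ng/mL. The line and its medium therefore cannot be told apart in any value below, and each line stands for itself and not for a class of vessel. The replicates are cultures of a single line each, so the p-values measure the spread between cultures. EA.hy926 libraries held 34846046 to 39899324 counts and HMEC-1 libraries 33391640 to 43877224, and log2 counts correlated across genes at r = 0.9949 to 0.9959 between libraries of the same line and 0.8031 to 0.8067 between lines.

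A collagen molecule is a triple helix of alpha chains, each built on repeats of glycine followed by a pair of other residues, often proline and hydroxyproline. Fibrillar collagens form the cross-banded fibrils of connective tissue, whereas type IV chains form the network of the basement membrane on which endothelial cells sit. Type VIII is a short-chain network collagen of the vessel wall, type VI forms beaded filaments, fibril-associated collagens with interrupted helices (FACIT) decorate fibrils, and a few chains span the plasma membrane. Because the chains of a molecule are encoded by separate genes, the level of each chain relative to its partners bears on which molecules a cell could assemble.

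Levels are given as CPM, the counts of a gene in every 1000000 counts of the TMM-scaled library. Levels of different genes are compared per kb of exon unless plain CPM is named. Differences are log2FC of EA.hy926 over HMEC-1 from the quasi-likelihood test of edgeR, with Benjamini-Hochberg adjustment over all 16310 genes tested, and a gene is called higher or lower where the adjusted p was under 0.05 and the absolute log2FC over 1. By this rule 17 of the 24 collagen chain genes tested differed, 70.8%, against a background of 35.5% of all genes tested. In EA.hy926, 4 chains were higher (background 19.1%) and 13 were lower (background 16.4%). The median log2FC of the 24 chains was -1.43, beside -0.01 over all genes tested. It stayed at -1.43 with COL6A3, the tested chain at 0 counts in EA.hy926, set to its bound. This could not move the median, because COL6A3 lies below it either way. With the adjusted p alone, 8 chains were higher (background 42.6%) and 15 lower (background 43.3%), 23 of 24 against a background of 85.8%, and the CPM ranges of the lines did not overlap for 21 of the 24, against a background of 77.4%.

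**Figure D1:**
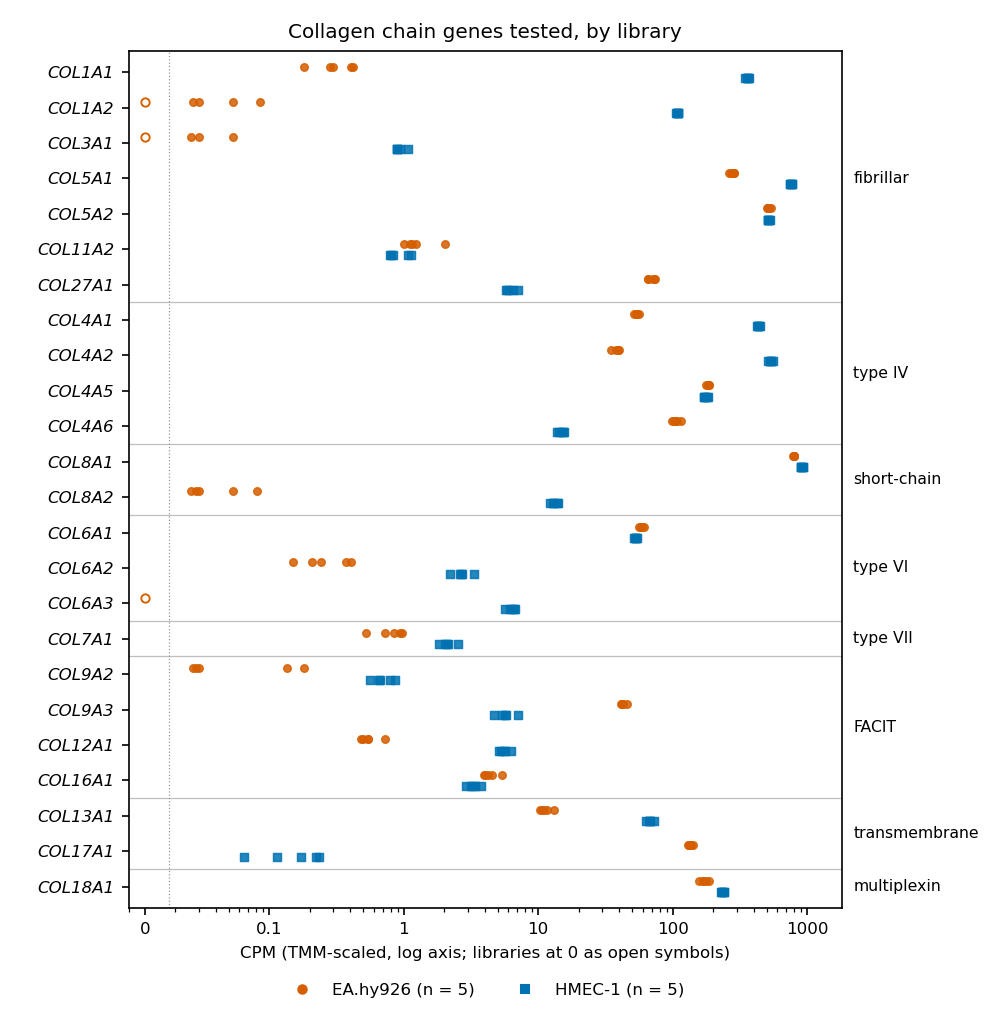
CPM (log axis) of the 24 collagen chain genes tested, grouped by class, with a point for each of the 5 EA.hy926 libraries (circles) and the 5 HMEC-1 libraries (squares), and an open symbol where at least 1 library of the line was at 0. COL1A1, COL1A2 and COL8A2 lie at 0.422 CPM or less in EA.hy926 and at 12.3 CPM or more in HMEC-1, while COL17A1 lies at 130 CPM or more in EA.hy926 and at 0.236 CPM or less in HMEC-1.

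Counted over the genes rather than the tests, 37 of the 44 chains had a count in some library of EA.hy926, and 37 had one in HMEC-1. At least 100 counts in every library were reached by 14 chains in EA.hy926 and by 18 in HMEC-1. For the chains at this depth the coefficient of variation between libraries of a line was 0.888% to 14.7%, with a median of 3.67% over 32 values.

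**Figure D2:**
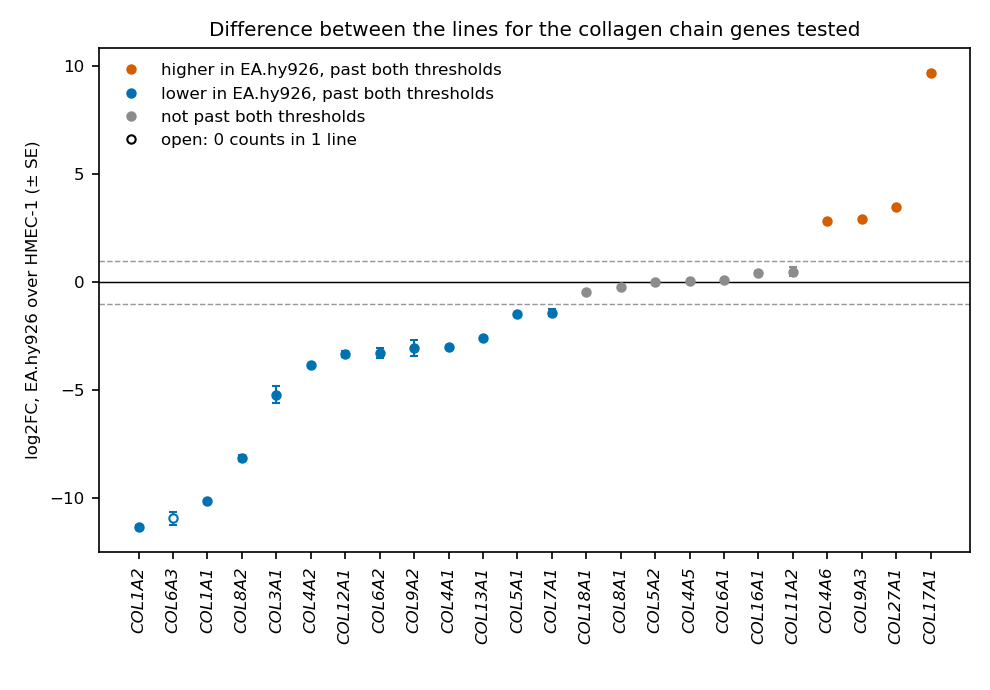
Log2FC of EA.hy926 over HMEC-1 with its SE for the 24 chains tested, in order of log2FC, with dashed lines at -1 and 1. Of the points, 13 lie below the lower line and 4 above the upper line. COL6A3 is drawn open because its 5 EA.hy926 libraries were at 0, so that its fitted value depends on the prior count.

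The fibrillar class has 11 genes, of which 7 were tested, with a median log2FC of -1.45. Chains of type I, the main collagen of skin, bone and tendon, were lower in EA.hy926, as were COL3A1 and COL5A1, whereas COL27A1 was higher. COL5A2 and COL11A2 did not pass both thresholds.

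COL1A1 (ENSG00000108821, GRCh38 chr17:50184101-50201632), the alpha 1 chain of type I collagen, was at 0.298, 0.422, 0.285, 0.182 and 0.404 CPM in the EA.hy926 libraries. In HMEC-1 it was at 360, 343, 357, 363 and 367 CPM. The lines were far apart, with a log2FC of -10.13 (SE 0.062, adjusted p = 2.6e-29), which is 1124-fold lower in EA.hy926. COL1A2 (ENSG00000164692, chr7:94394895-94431227), the alpha 2 chain, had 0.0541, 0.0301, 0.0854, 0 and 0.0269 CPM in EA.hy926. Its 5 HMEC-1 libraries had 109, 107, 110, 106 and 109 CPM. With 7 counts in all of the EA.hy926 libraries together against 21760 in HMEC-1, the ratio was 2797 (95% counting interval 1357 to 6957) with an adjusted p of 1.7e-27. Such intervals cover counting error only.

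Type I collagen is known as a product of fibroblasts. For 15 fibroblast and mural markers the summed level was 467 to 530 CPM in EA.hy926, against 171 to 178 CPM in HMEC-1. Among the 10 tested, 3 were higher (background 19.1%) and 7 lower (background 16.4%), 100% against a background of 35.5%. The 3 higher ones, named after their values were seen, were RGS5, which made up most of the sum in EA.hy926 at 430 ± 23.5 CPM beside 5.05 ± 0.221 CPM in HMEC-1, FAP, at 50.7 ± 2.20 and 0.142 ± 0.0429 CPM, and ACTA2, at 6.26 ± 0.613 and 0.973 ± 0.174 CPM. Among the 7 lower ones was the defining PDGFRB, at 0.931 ± 0.194 and 23.2 ± 1.29 CPM. The others, also named after their values were seen, included CSPG4 (0.207 and 67.5 CPM), TAGLN (1.91 and 42.7 CPM) and TWIST2 (5.84 and 32.4 CPM). THY1, CNN1 and MFAP5 averaged 0.601 CPM or less in either line, and the median log2FC of the 10 was -4.48. Exons of other genes cover 36.2% of the exonic bases of ACTA2 and 47.8% of those of TAGLN. Reads of an overlapping gene cannot be told apart from theirs. PDGFRA was not tested, with 0 counts in EA.hy926 and an average of 0.102 ± 0.0638 CPM in HMEC-1. DCN, a fibroblast gene of the list of fibril-associated proteins, was at 0 in all 10 libraries. The part of such cells in the level of type I collagen was not tested, and in bulk libraries fewer cells of a type and less RNA per cell cannot be told apart.

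COL5A1 (ENSG00000130635, chr9:134641803-134844843), the alpha 1 chain of type V, which nucleates type I fibrils, was at 286, 260, 286, 271 and 281 CPM in EA.hy926. In HMEC-1 it was at 774, 744, 750, 765 and 752 CPM. It was thus lower in every EA.hy926 library, with a log2FC of -1.45 (SE 0.028, adjusted p = 1.7e-21), 2.73-fold. Its partner COL5A2 (ENSG00000204262, chr2:189031898-189225312), the alpha 2 chain of type V, was at 519, 499, 541, 513 and 512 CPM in EA.hy926, with HMEC-1 at 509, 511, 517, 507 and 525 CPM. These ranges overlapped, and the log2FC of 0.01 (SE 0.024, adjusted p = 0.753) turned to -0.13 (adjusted p = 5.1e-05) when libraries were scaled by their totals alone.

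COL27A1 (ENSG00000196739, chr9:114155537-114312511), a fibrillar chain known from cartilage, was at 65.8, 65.3, 72, 70.9 and 73.5 CPM in EA.hy926. Its HMEC-1 libraries lay at 7.13, 5.71, 6.44, 6.08 and 5.81 CPM. The log2FC was 3.48 (SE 0.054, adjusted p = 5.1e-23), 11.2-fold, and COL27A1 was the only fibrillar chain tested that was higher in EA.hy926 past both thresholds. The remaining fibrillar chains were scarce. COL3A1, the chain of type III collagen, had 4 counts in all of the EA.hy926 libraries together and 187 in HMEC-1, where it averaged 0.935 CPM, a ratio of 42.1 (95% counting interval 16.2 to 156, adjusted p = 4.6e-11). COL11A2, a chain of type XI, averaged 1.31 ± 0.414 CPM (SD, n = 5) in EA.hy926, with HMEC-1 at 0.927 ± 0.165 CPM, and had a log2FC of 0.49 (SE 0.20, adjusted p = 0.0284). This p depended on single libraries. Without EA.hy926 replicate 4, at 2.03 CPM, the log2FC was 0.28 with an adjusted p of 0.158, and without HMEC-1 replicate 1, 2 or 5 the adjusted p was 0.0668, 0.0718 or 0.0742.

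Type IV chains were split in direction, with 1 higher and 2 lower among the 4 tested. COL4A1 and COL4A2, the pair found in nearly all basement membranes, were lower in EA.hy926, COL4A6 was higher, COL4A5 lay close to its HMEC-1 level, and COL4A3 and COL4A4 were too scarce to test. Each of the 3 gene pairs lies head to head, with its members transcribed away from each other. In GENCODE 44 the bodies of COL4A3 and COL4A4 are 170 bp apart and those of COL4A5 and COL4A6 are 340 bp apart, while the RefSeq starts of COL4A1 and COL4A2 are 126 bp apart, although the body of COL4A2 in GENCODE reaches into COL4A1 through an alternative start. The stretches between the partners of the pairs tested are shown because the members of each pair differ in log2FC. They are RefSeq sequence of GRCh38.p14, each read on the + strand, toward COL4A2 and COL4A5, with matches to CCAAT and GGGCGG in capitals. For the first pair it is the 100 bases at chr13:110307158-110307257. They run from the base after the COL4A1 start to the base before the next exon that GENCODE draws. For the other it is the 250 bases before the COL4A5 start, chrX:108439588-108439837.
COL4A1-COL4A2: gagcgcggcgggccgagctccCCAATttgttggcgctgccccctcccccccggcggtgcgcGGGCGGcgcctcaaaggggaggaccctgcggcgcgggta
COL4A5: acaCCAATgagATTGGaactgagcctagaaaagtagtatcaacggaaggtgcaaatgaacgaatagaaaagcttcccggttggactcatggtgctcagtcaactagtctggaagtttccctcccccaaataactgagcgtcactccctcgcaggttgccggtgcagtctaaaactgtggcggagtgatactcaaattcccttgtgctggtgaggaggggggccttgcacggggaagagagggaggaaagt
The COL4A1-COL4A2 stretch was 78% G and C and held 1 match to GGGCGG and 1 to CCAAT, and the COL4A5 stretch was 51.2% G and C and held 2 matches to CCAAT, 1 on each strand. In neither was there a match to TATAAA or TGANTCA. Matches were sought on both strands, and they describe letters only.

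COL4A1 (ENSG00000187498, chr13:110148963-110307157) was at 54.3, 53.7, 56.4, 51.6 and 54.0 CPM in EA.hy926, with HMEC-1 at 445, 439, 429, 432 and 420 CPM. It was 8.02-fold lower in EA.hy926, with a log2FC of -3.00 (SE 0.028, adjusted p = 1.8e-26). COL4A2 (ENSG00000134871, chr13:110305812-110513209) was at 39.4, 34.6, 39.9, 37.6 and 39.4 CPM in EA.hy926, with HMEC-1 at 554, 537, 529, 536 and 515 CPM. It was 14.0-fold lower, with a log2FC of -3.81 (SE 0.035, adjusted p = 1.4e-26). No EA.hy926 library came near the lowest HMEC-1 library for either chain.

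COL4A5 (ENSG00000188153, chrX:108439838-108697545), a type IV chain of restricted basement membranes, among them that of the glomerulus, was at 185, 178, 184, 185 and 182 CPM in EA.hy926, with HMEC-1 at 182, 174, 172, 179 and 171 CPM. The ranges overlapped. Its log2FC was 0.06 (SE 0.025, adjusted p = 0.0416), but -0.08 (adjusted p = 0.00624) with libraries scaled by their totals alone, and the adjusted p reached 0.05 or more without HMEC-1 replicate 1 (0.0531), 2 (0.179), 3 (0.192), 4 (0.0976) or 5 (0.235). COL4A6 (ENSG00000197565, chrX:108155607-108439497), a chain of the basement membranes of epithelia and smooth muscle, was at 98.7, 102, 106, 108 and 115 CPM in EA.hy926, with HMEC-1 at 14.3, 15.6, 15, 15.4 and 13.9 CPM. It was 7.12-fold higher in EA.hy926, with a log2FC of 2.83 (SE 0.044, adjusted p = 5.2e-23). COL4A3 averaged 0.147 CPM in EA.hy926, with HMEC-1 at 0.120 CPM, and COL4A4 had 7 counts in all of the EA.hy926 libraries and 57 in HMEC-1, a ratio of 7.33 (95% counting interval 3.33 to 19.0).

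The short-chain network class consists of COL8A1, COL8A2 and COL10A1. COL8A1, the alpha 1 chain of type VIII, was the collagen chain with the highest level per kb in both lines, at 84.7 ± 0.751 CPM per kb (SD, n = 5) in EA.hy926 and 97.0 ± 1.43 CPM per kb in HMEC-1. The difference was small, a log2FC of -0.20 (SE 0.021, adjusted p = 2.5e-08), and did not pass the fold threshold, although the ranges of 787 to 804 CPM and 900 to 928 CPM did not overlap. COL8A2 (ENSG00000171812, chr1:36095239-36125222), the alpha 2 chain, was at 0.0812, 0.0301, 0.0285, 0.0260 and 0.0539 CPM in EA.hy926, with HMEC-1 at 12.8, 12.3, 14.1, 13.8 and 13.1 CPM. There were 8 counts in all of the EA.hy926 libraries against 2669, a ratio of 300 (95% counting interval 152 to 696, adjusted p = 1.8e-21). COL10A1, the chain of hypertrophic cartilage, was not tested, with means of 0.0775 and 0.0465 CPM.

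Of the 5 type VI genes 3 were tested, and 2 of them were lower in EA.hy926. COL6A3 (ENSG00000163359, chr2:237324003-237414328), the large alpha 3 chain, had 0 counts in all 5 EA.hy926 libraries and 6.67, 6.57, 6.46, 6.13 and 5.63 CPM in HMEC-1. Set against the level that 3 counts make in the shallowest EA.hy926 library, 0.0904 CPM, EA.hy926 lay at least 69.6-fold lower (adjusted p = 6.1e-16). COL6A2, the alpha 2 chain, averaged 0.275 ± 0.108 CPM (SD, n = 5) in EA.hy926, with HMEC-1 at 2.70 ± 0.406 CPM, and had a log2FC of -3.27 (SE 0.21, adjusted p = 3.1e-12). COL6A1, the alpha 1 chain, was at 58.3 ± 1.86 CPM in EA.hy926, with HMEC-1 at 53.3 ± 0.991 CPM. Its log2FC of 0.13 (SE 0.030, adjusted p = 4.5e-04) was short of the fold threshold and became -0.01 with libraries scaled by their totals alone. COL6A5 and COL6A6, which can replace the alpha 3 chain, averaged at most 0.0193 CPM in either line.

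COL7A1, the only chain of type VII, which forms the anchoring fibrils below the epidermis, averaged 0.801 ± 0.182 CPM (SD, n = 5) in EA.hy926, with HMEC-1 at 2.13 ± 0.256 CPM, and had a log2FC of -1.41 (SE 0.17, adjusted p = 9.0e-08). Of the 10 FACIT genes 4 were tested, with 1 higher and 2 lower in EA.hy926. COL9A3 (ENSG00000092758, chr20:62816244-62841159), a chain of cartilage type IX, was at 42.6, 41.8, 42.0, 46.0 and 41.3 CPM in EA.hy926, with HMEC-1 at 7.02, 4.71, 5.68, 5.40 and 5.73 CPM. It was 7.52-fold higher in EA.hy926 (log2FC 2.91, SE 0.066, adjusted p = 3.6e-20). COL9A2, another type IX chain, was lower at a low level, at 0.0805 ± 0.0731 CPM in EA.hy926, with HMEC-1 at 0.707 ± 0.119 CPM (log2FC -3.05, SE 0.37, adjusted p = 1.1e-07), and COL9A1 was at 0 counts in all 10 libraries. COL12A1 (ENSG00000111799, chr6:75084326-75206267), which coats type I fibrils, was at 0.731, 0.542, 0.484, 0.494 and 0.539 CPM in EA.hy926, with HMEC-1 at 5.53, 5.29, 5.68, 6.31 and 5.10 CPM. It was 9.95-fold lower in EA.hy926 (log2FC -3.31, SE 0.13, adjusted p = 6.5e-16). COL16A1 lay at 4.43 ± 0.584 and 3.30 ± 0.318 CPM, with a log2FC of 0.43 (SE 0.10, adjusted p = 6.8e-04) that did not pass the fold threshold.

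The transmembrane class held the highest log2FC of the 24 chains tested. COL17A1 (ENSG00000065618, chr10:104031286-104085880), the hemidesmosomal collagen that anchors basal epithelial cells to the basement membrane, was at 132, 133, 130, 141 and 136 CPM in EA.hy926. In HMEC-1 it was at 0.114, 0.221, 0.0651, 0.172 and 0.236 CPM. The log2FC was 9.69 (SE 0.079, adjusted p = 2.3e-27), 826-fold, and per kb COL17A1 was at rank 2375 in EA.hy926 and rank 15445 in HMEC-1 of the 16109 genes ranked. The 250 bases before its RefSeq start, chr10:104085881-104086130 of GRCh38.p14 read on the - strand, are shown because of this difference, with matches to TATAAA and to CCAAT in capitals.
COL17A1: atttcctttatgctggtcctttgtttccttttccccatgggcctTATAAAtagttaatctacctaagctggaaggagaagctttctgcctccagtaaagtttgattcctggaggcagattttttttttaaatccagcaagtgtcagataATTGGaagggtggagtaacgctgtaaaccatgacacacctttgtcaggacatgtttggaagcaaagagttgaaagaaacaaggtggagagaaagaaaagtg
This stretch was 40.4% G and C, and it held 1 match to TATAAA, whose first base lies 206 bases before the start, and 1 to CCAAT on the other strand.

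COL17A1 is known from epithelia. For 15 epithelial markers, which do not include it, the summed level was 1276 to 1389 CPM in EA.hy926, against 429 to 492 CPM in HMEC-1. Among the 7 tested, 2 were higher (background 19.1%) and 3 lower (background 16.4%), 71.4% against a background of 35.5%. The defining EPCAM was among the higher ones, but at a low level in both lines, 0.895 ± 0.198 and 0.246 ± 0.169 CPM. CDH1 had 0 counts in EA.hy926 and at most 1 in an HMEC-1 library. The other untested markers, named after their values were seen, averaged 0.180 CPM or less in either line. They were CLDN3, ESRP1, GRHL2, RAB25 and CDH3, at 0 in every EA.hy926 library, and ELF3 and ST14. The keratins, named like the next genes after their values were seen, made up most of the sum. KRT8 was the other higher marker, at 546 ± 21.7 CPM beside 19.2 ± 0.947 CPM in HMEC-1 (log2FC 4.83, SE 0.038, adjusted p = 1.2e-27), and KRT7, at 622 ± 30.7 and 314 ± 19.6 CPM, was just short of the fold threshold with a log2FC of 0.99. The 3 lower markers were KRT19 (log2FC -4.71), CLDN7 (log2FC -4.54) and CLDN4 (log2FC -1.42), each under 5 CPM in both lines. The part of epithelial traits in the level of COL17A1 was not tested.

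COL13A1 (ENSG00000197467, chr10:69801880-69964275), a transmembrane collagen of the neuromuscular junction and of cell adhesion sites, was at 11.6, 10.7, 13.2, 10.3 and 11.0 CPM in EA.hy926, with HMEC-1 at 67.7, 72.5, 67.9, 66.3 and 63.3 CPM. It was 5.95-fold lower in EA.hy926 (log2FC -2.57, SE 0.053, adjusted p = 6.5e-21), so the pair of transmembrane chains tested differed in opposite directions. The multiplexin COL18A1, which carries endostatin at its C-terminal end, was at 171 ± 10.4 CPM in EA.hy926, with HMEC-1 at 235 ± 5.68 CPM, a log2FC of -0.46 (SE 0.034, adjusted p = 3.9e-11) below the fold threshold. Exons of other genes cover 18.5% of the exonic bases of COL18A1, and whether strand was used in counting is not given in the sources used here, so that reads of an overlapping gene cannot be told apart from its own. COL15A1, the other multiplexin, was not tested, with 35 counts in all of the EA.hy926 libraries and 5 in HMEC-1, a ratio of 7.78 (95% counting interval 3.04 to 25.4).

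The 20 chains that were not tested had at most 17 counts in any library. COL9A1, COL19A1 and COL22A1 were at 0 in all 10 libraries. COL5A3 and COL11A1 were at 0 in EA.hy926 and averaged 0.126 and 0.0646 CPM in HMEC-1, and COL24A1, COL23A1, COL25A1 and COL6A5 were at 0 in HMEC-1 and averaged 0.0397 CPM or less in EA.hy926. COL14A1 was at 0 in EA.hy926 and averaged 0.00491 CPM in HMEC-1. COL2A1, COL20A1, COL21A1, COL26A1 and COL28A1 averaged 0.272 CPM or less in either line. COL28A1 had 7 to 16 counts in each HMEC-1 library and COL5A3 had 4 to 7, so that both were detected there at a low level. A count of 0 in a library allows up to 0.0651 to 0.0904 CPM, taken as 3 counts, so that a chain at 0 was not detectable at this depth and is not shown to be absent.

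Promoter windows of RefSeq, from 250 bases before to 50 bases after a start, matched 32 of the 44 chains. COL1A1, COL1A2, COL2A1, COL3A1, COL5A2, COL6A1, COL6A5, COL8A1, COL9A3, COL14A1, COL20A1 and COL22A1 had none. Of the 44 windows of the matched chains, 54.5% held GGGCGG, 31.8% CCAAT, 18.2% TATAAA and 2.27% TGANTCA. Over all 35116 windows of the genome these shares were 45%, 34.6%, 11.5% and 7.71%. The counts of matches are descriptions and were not tested.

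Collagen transcripts together were at a lower level in EA.hy926, which is given as a description with no test. Summed over the 44 genes they made up 2466 ± 47.8 CPM (SD, n = 5) in EA.hy926, with HMEC-1 at 4213 ± 45.9 CPM, a log2 ratio of -0.77 or 1.71-fold, with ranges of 2388 to 2515 and 4169 to 4288 CPM that did not overlap. In EA.hy926, COL8A1 held 30.4% of the summed level per kb, COL5A2 25.4%, COL5A1 8.92%, COL18A1 7.25%, COL17A1 6.91%, COL4A5 5.53%, COL4A6 4.10% and COL6A1 3.79%. In HMEC-1, COL8A1 held 23.7%, COL5A2 17.2%, COL5A1 16.6%, COL1A1 9.73%, COL4A1 7.23%, COL18A1 6.81%, COL4A2 6.79% and COL4A5 3.63%. In each line 8 chains made up 90% of the level per kb, and the first 3 ranks per kb were the same. Among these 8, neighbours whose means lay within their SDs were COL18A1 and COL17A1 in EA.hy926, at 20.2 ± 1.22 and 19.2 ± 0.637 CPM per kb, COL4A6 and COL6A1 in EA.hy926, at 11.4 ± 0.673 and 10.5 ± 0.336 CPM per kb, and COL18A1 and COL4A2 in HMEC-1, at 27.8 ± 0.672 and 27.7 ± 0.718 CPM per kb. The ranks depend on the exon lengths used. By plain CPM in HMEC-1, COL5A1 was at 757, COL4A2 at 534 and COL5A2 at 514.

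**Figure D3:**
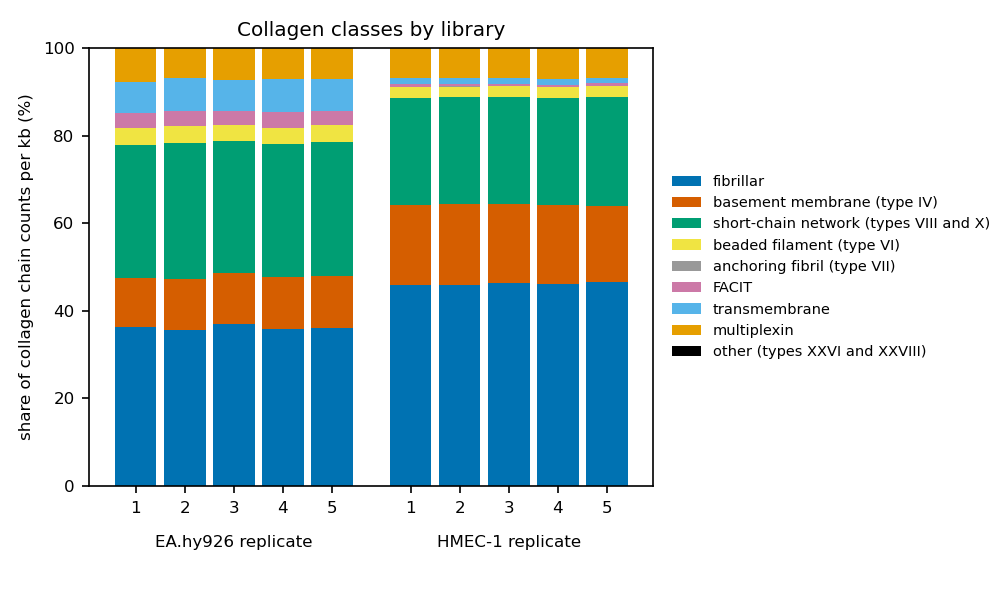
Share of the summed collagen counts per kb of exon (%) held by each collagen class, as a stacked bar for each of the 10 libraries. The fibrillar share is 35.7% to 37.0% in EA.hy926, against 45.8% to 46.6% in HMEC-1, and the transmembrane and FACIT shares are visible in EA.hy926 and narrow in HMEC-1.

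By class, fibrillar chains held 36.2% ± 0.499 (SD, n = 5) of the level per kb in EA.hy926 and 46.2% ± 0.330 in HMEC-1, and type IV chains 11.7% ± 0.209 and 18.0% ± 0.388. The order was reversed for the short-chain class, at 30.4% ± 0.357 and 24.4% ± 0.206, for type VI, at 3.80% ± 0.145 and 2.55% ± 0.0318, and for FACIT, at 3.37% ± 0.168 and 0.490% ± 0.0436. Transmembrane chains held 7.26% ± 0.246 in EA.hy926 and 1.44% ± 0.0803 in HMEC-1, nearly all of it COL17A1 in the former (6.91%) and COL13A1 in the latter (1.44%). Multiplexins, in effect COL18A1, were at 7.26% ± 0.345 and 6.81% ± 0.120, with ranges of 6.88% to 7.80% and 6.70% to 6.99% that overlapped. These shares are descriptions, since a rise of a class lowers the share of the others.

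**Figure D4:**
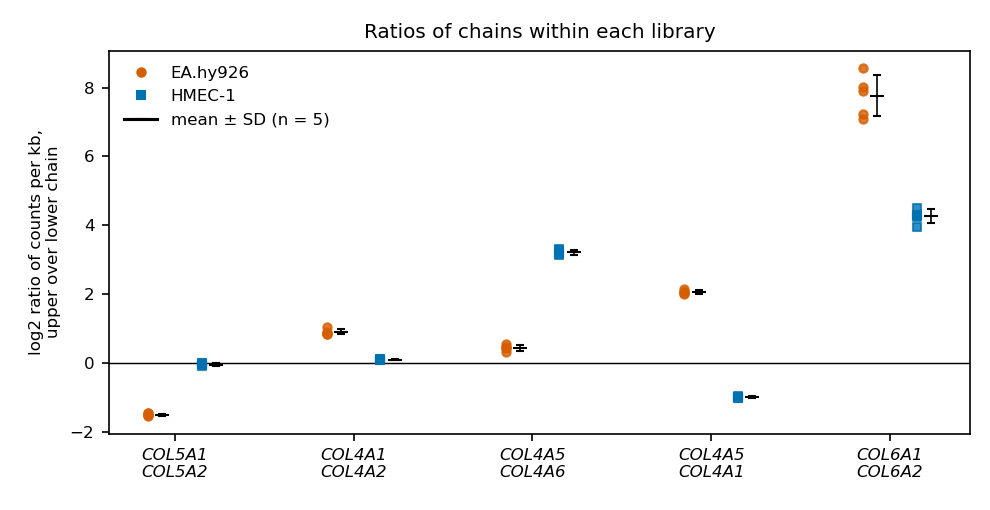
Log2 ratio of counts per kb of the upper over the lower chain in each of the 5 EA.hy926 libraries (circles) and 5 HMEC-1 libraries (squares), with the mean ± SD beside them. The lines do not overlap for any of the 5 pairs, and COL4A5 over COL4A1 lies above 0 in EA.hy926 and below 0 in HMEC-1.

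Ratios of chains were taken within each library, since such a ratio does not depend on the scaling between libraries. The pairs listed were chains that can share a molecule, except COL4A5 and COL4A1, which belong to different type IV molecules. Of 12 pairs listed, 4 had at least 10 counts of both chains in every library and were tested by a two-sided exact permutation test over libraries. All 4 pairs gave an exact permutation p of 0.00794, also after adjustment over the 4 pairs, which is the smallest that 5 libraries against 5 allow. The difference of a ratio between lines restates the difference in log2FC of its chains, so the p-values of such ratios add no separate evidence. COL5A1 over COL5A2, the type V partners, had log2 ratios of -1.47, -1.55, -1.53, -1.53 and -1.47 in EA.hy926, whereas those in HMEC-1 were 0.00, -0.07, -0.07, -0.02 and -0.09. The means of -1.51 ± 0.0355 and -0.05 ± 0.0371 (SD, n = 5) correspond to counts per kb of alpha 2 at 2.85 times those of alpha 1 in EA.hy926 and 1.04 times in HMEC-1. These values depend on the exon lengths used and are not counts of transcripts. By plain CPM, COL5A2 was above COL5A1 in EA.hy926 (517 and 277) and below it in HMEC-1 (514 and 757). Type V is commonly a molecule with a pair of alpha 1 chains and a single alpha 2 chain.

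COL4A1 over COL4A2 had log2 ratios of 0.86, 1.03, 0.89, 0.85 and 0.85 in EA.hy926, whereas those in HMEC-1 were 0.08, 0.10, 0.09, 0.08 and 0.10. The difference was 0.80 (SE 0.0344), so the head-to-head partners were lower by unequal factors, while the value of each ratio itself depends on the exon lengths used. COL4A5 over COL4A6 had log2 ratios of 0.55, 0.45, 0.44, 0.42 and 0.31 in EA.hy926, whereas those in HMEC-1 were 3.32, 3.13, 3.17, 3.18 and 3.27. That is a ratio of 1.35 in EA.hy926 against 9.27 in HMEC-1. COL4A5 over COL4A1, chains of different molecules, had a log2 ratio that differed in sign, from 2.07, 2.04, 2.01, 2.15 and 2.06 in EA.hy926 to -0.98, -1.03, -1.01, -0.97 and -0.99 in HMEC-1, a difference of 3.06 (SE 0.0258). COL4A5 was therefore 4.18 times COL4A1 per kb in EA.hy926 and 0.501 times in HMEC-1. With a limit of at least 5 counts, chosen after the data were seen, COL6A1 over COL6A2 was added, with a ratio of 218 in EA.hy926 and 19.2 in HMEC-1 (exact permutation p = 0.00794). The other 7 pairs had too few counts of a chain in some library.

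Neighbouring genes of the same class, named after their values were seen, also differed in log2FC. COL3A1 and COL5A2 are 19.2 kb apart on chromosome 2 and had log2FC of -5.20 and 0.01, and COL6A1 and COL6A2 are 93.1 kb apart on chromosome 21 and had log2FC of 0.13 and -3.27.

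Genes that fold, secrete, cleave, cross-link, accompany or bind collagens were taken from 6 lists with 76 genes, of which 62 were tested. Of these, 27 passed both thresholds (43.5%, against the background of 35.5%), 9 higher and 18 lower in EA.hy926, with a median log2FC of -0.17. The enzymes and chaperones of the endoplasmic reticulum had 18 tested genes, of which 3 were higher and 2 lower, with a median of 0.18. This share of 27.8% was below the background of 35.5%. PLOD2, a lysyl hydroxylase that prepares telopeptides for cross-links, was at 1761 ± 32.7 CPM (SD, n = 5) in EA.hy926, with HMEC-1 at 482 ± 2.22 CPM (log2FC 1.87, SE 0.022, adjusted p = 7.1e-25). The prolyl isomerases FKBP7 and FKBP10 were higher too, with log2FC of 2.44 (adjusted p = 1.8e-20) and 1.24 (adjusted p = 1.0e-21). The prolyl hydroxylases P4HA3 and P3H2 were lower, with log2FC of -1.84 (adjusted p = 1.1e-17) and -1.71 (adjusted p = 2.1e-22). SERPINH1, the collagen chaperone HSP47, is named after its value was seen, with 262 ± 7.05 and 363 ± 4.70 CPM and a log2FC of -0.47 that did not pass the fold threshold.

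**Figure D5:**
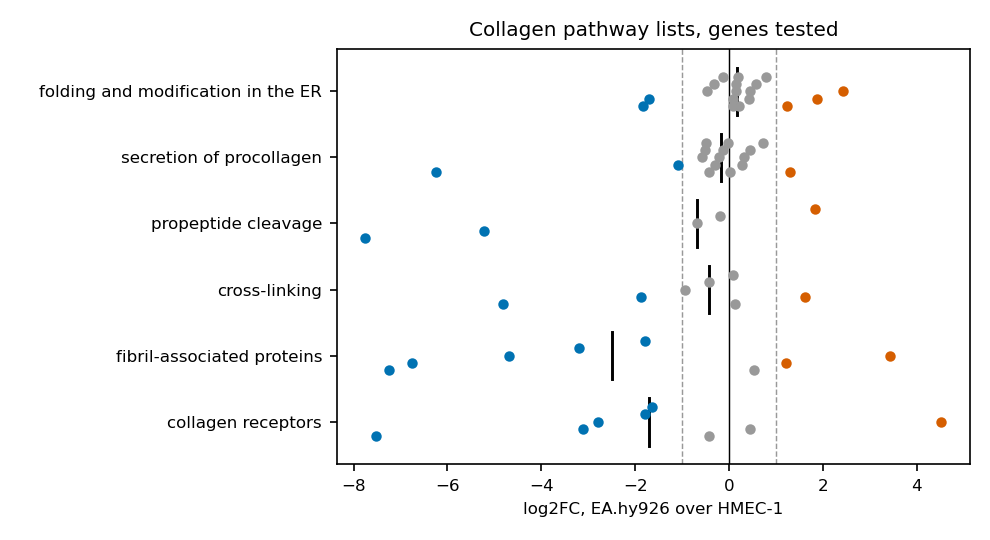
Log2FC of EA.hy926 over HMEC-1 for the 62 tested genes of 6 lists, a point for each gene, orange where higher and blue where lower past both thresholds, grey otherwise, with a black bar at the median of each list. The medians of the fibril-associated proteins (-2.50) and the collagen receptors (-1.71) lie left of -1.

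Of 16 genes of procollagen secretion, all tested, 1 was higher (MIA2, log2FC 1.31, adjusted p = 2.0e-05) and 2 were lower, with a median of -0.18. The share past both thresholds, 18.8%, was below the background of 35.5%. SAR1A, the small GTPase that starts COPII coat assembly, was at 92.7 ± 3.35 CPM in EA.hy926, with HMEC-1 at 197 ± 5.52 CPM (log2FC -1.09, SE 0.029, adjusted p = 6.2e-19). CREB3L1, a transcription factor known to act on type I collagen genes, was at 0.0612 ± 0.0455 and 4.87 ± 0.866 CPM (log2FC -6.25, SE 0.27, adjusted p = 3.0e-15). MIA2 and CREB3L1 averaged under 5 CPM in both lines and are named after their values were seen. Among propeptide proteases and their enhancers 5 of 10 genes were tested. PCOLCE2, an enhancer of C-propeptide cleavage, was at 13.6 ± 1.59 and 3.83 ± 0.401 CPM (log2FC 1.83, SE 0.089, adjusted p = 2.7e-14), and 2 genes, the N-propeptidases ADAMTS2 and ADAMTS14, were lower at under 1 CPM in both lines, ADAMTS14 with 0 counts in EA.hy926.

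Of 7 cross-linking genes 1 was higher and 2 were lower, 42.9% against a background of 35.5%. TGM2, tissue transglutaminase, was at 3204 ± 127 CPM in EA.hy926, with HMEC-1 at 1045 ± 21.1 CPM (log2FC 1.62, SE 0.027, adjusted p = 2.3e-22). LOXL1, a lysyl oxidase known from elastic fibres, was at 6.33 ± 0.326 and 23.3 ± 1.60 CPM (log2FC -1.87, SE 0.060, adjusted p = 1.4e-17), and LOXL4 was the other gene that was lower. LOX, which cross-links fibrillar collagens, is named after its values were seen, with 34.4 ± 2.37 and 32.3 ± 1.48 CPM, a log2FC of 0.09 (SE 0.046) and an adjusted p of 0.0731.

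Fibril-associated proteins and collagen receptors each held 5 of the 18 lower genes of the 6 lists. Of 8 fibril-associated genes tested, 5 were lower and 2 higher (87.5%, background 35.5%), with a median of -2.50. FN1, which encodes fibronectin, was at 539 ± 19.2 CPM in EA.hy926, with HMEC-1 at 4953 ± 163 CPM (log2FC -3.20, SE 0.030, adjusted p = 1.7e-26). BGN, the small proteoglycan biglycan, was at 28.6 ± 5.42 and 737 ± 17.0 CPM (log2FC -4.69, SE 0.074, adjusted p = 8.5e-23). TNXB, tenascin X, was at 0.385 ± 0.195 and 42.1 ± 2.46 CPM (log2FC -6.75, SE 0.11, adjusted p = 1.9e-22), a value made uncertain by a near-identical partial copy of the gene that can take its reads. The 2 higher genes, PRELP and THBS2, averaged under 5 CPM in both lines.

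Of 8 collagen receptors tested, 1 was higher and 5 were lower (75.0%, background 35.5%), with a median of -1.71. ITGA2, the alpha 2 subunit of a collagen-binding integrin, was at 268 ± 11.7 CPM in EA.hy926, with HMEC-1 at 11.7 ± 1.35 CPM (log2FC 4.53, SE 0.052, adjusted p = 3.5e-25). DDR1, a receptor tyrosine kinase for collagen, was at 0.255 ± 0.0703 and 47.7 ± 1.33 CPM (log2FC -7.53, SE 0.083, adjusted p = 2.0e-25), and its relative DDR2 at 6.48 ± 0.762 and 45.4 ± 3.13 CPM (log2FC -2.80, SE 0.065, adjusted p = 5.9e-20). MRC2, an endocytic receptor that takes up collagen, was at 30.5 ± 1.08 and 264 ± 5.27 CPM (log2FC -3.11, SE 0.030, adjusted p = 2.2e-26). The remaining lower genes were ITGA1 and ITGA11, subunits of other collagen-binding integrins, which like ADAMTS2, ADAMTS14, LOXL4, PRELP and THBS2 are named after their values were seen.

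Markers of the labelled cell type were read beside these results. All 15 endothelial markers were tested, 10 were higher and 1 lower in EA.hy926, and their summed level was 7025 to 7830 CPM there and 2362 to 2441 CPM in HMEC-1. The defining PECAM1 was at 1633 ± 158 and 254 ± 7.16 CPM, CDH5 at 1268 ± 63.1 and 441 ± 5.39 CPM, and VWF at 57.9 ± 9.30 and 22.6 ± 0.435 CPM, so that both lines carried them. EMCN was the lower marker, with at most 2 counts in an EA.hy926 library and 18.4 ± 0.907 CPM in HMEC-1.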

How the data were processed

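Total RNA of 10 cultures (5 EA.hy926, 5 HMEC-1) was extracted by the authors after trypsin detachment, and mRNA was selected with oligo(dT) beads, fragmented and primed with random hexamers. The deposited table holds raw counts per gene, not normalized. The submitters' processing notes list fastp, HISAT2, featureCounts, DESeq2 and GRCh38, whereas the study's methods name HTSeq for the counting. Annotation release and strand setting are not given in the sources used here.

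Lines and replicates were taken from the sample labels. Symbols, coordinates and exon lengths came from GENCODE 44, which matched 56434 of 60448 identifiers (93.4%). Genes were filtered with filterByExpr (minimum count 10, total 15), scaled by TMM (factors 0.942 to 0.964 in EA.hy926, 1.04 to 1.05 in HMEC-1) and tested for a difference between lines by the quasi-likelihood F test (edgeR 4.0.16, R 4.3.3, no covariates), Benjamini-Hochberg adjustment over 16310 genes, and the thresholds of the study. SE is the absolute log2FC over the square root of F. The fit was also run on simulated counts with few genes changed, a setting unlike this contrast, where many genes differed. Overlap of exons was computed with bedtools 2.31.1. Permutation tests were enumerated in Python 3.11.15 with numpy 2.4.6, and counting intervals used scipy 1.17.1. Alternatives were RLE factors, library totals, no filter or a stricter one, a replicate block, glmTreat, DESeq2 1.42.0, limma-voom 3.58.1 and leaving out each library.

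All members were accounted for. Full values were given to members past both thresholds with a mean of at least 5 CPM in either line and to members of the ratios tested, and from each list at most the 3 highest and 3 lowest log2FC were named under the same limits. The members and lists were chosen with earlier results of these data known. The fold bound of a gene at 0 used 3 counts in the shallowest library.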

Additional observations from a re-analysis of the deposited data

Results flagged for a closer look

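Among 48 groups of 5 libraries examined, 5 held a library whose gap to the nearest of the others was large against the range of the group by Dixon's 95% criterion, and chance gives about 1 in 20. COL3A1 was at 1.08 CPM (38 counts) in HMEC-1 replicate 1 against 0.883 to 0.931 CPM in the other libraries of the line. COL11A2 was at 2.03 CPM (78 counts) in EA.hy926 replicate 4 against 0.997 to 1.24 CPM. COL9A3 was at 46.0 CPM in the same library against 41.3 to 42.6 CPM. COL12A1 was at 0.731 CPM (27 counts) in EA.hy926 replicate 1 against 0.484 to 0.542 CPM. The log2 ratio of COL4A1 over COL4A2 was 1.03 in EA.hy926 replicate 2 against 0.85 to 0.89. COL3A1, COL9A3 and COL12A1 kept their calls without these libraries, and the ratio of EA.hy926 stayed above that of each HMEC-1 library. What set these libraries apart was not tested.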

How the results depend on the processing

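The count of 17 chains past both thresholds was 17 with RLE factors, library totals, a replicate block, glmTreat, DESeq2 and limma-voom, and 17 to 18 when a single library was left out. It was 9 (6 of them lower) among the 16 chains with at least 10 counts in every library, where 3255 of 13107 genes tested were called. By its construction this filter drops chains that are scarce in a line. With no filter the count was 24 among 41 chains, of which 7 were higher, and 9312 of 33071 genes tested were called. Library totals moved the median log2FC of all genes by -0.13 and turned COL5A2 to -0.13 (adjusted p = 5.1e-05), COL4A5 to -0.08 (adjusted p = 0.00624) and COL6A1 to -0.01, none past the fold threshold. COL5A2 was also at -0.01 with no filter, and it ranged from -0.01 to 0.03 when a library was left out. By the adjusted p alone COL5A2 thus passed and COL4A5 passed in the opposite direction with library totals, whereas COL6A1 (0.849) and COL11A2 (0.105) were lost with library totals and COL4A5 (0.311) with no filter. The summed plain CPM had a log2 ratio of -0.91 with library totals and of -0.98 without COL8A1. Shares from plain counts instead of counts per kb were 15.4% (EA.hy926) and 27.5% (HMEC-1) for type IV and 35.1% and 41.4% for fibrillar chains. Libraries with the same replicate number did not deviate together (correlations -0.0228 to 0.0389), so the numbers were not taken to pair them. With the replicate block 17 chains and 5786 genes were called, beside 17 and 5784, and 0 of the 4 chain ratios passed, because 5 pairs allow no p below 0.0625. Depth limits the chains that were scarce in either line, whose ratios rest on few counts.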
